A study of Homo sapiens with 9 samples.

Results

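The mitochondrial genome encodes 3 subunits of cytochrome c oxidase, COX1, COX2 and COX3, and the cytochrome b of the bc1 complex, CYTB. These 4 genes were taken by name from the entries of the count table that carry RefSeq protein identifiers, YP_003024028.1 for COX1, YP_003024029.1 for COX2, YP_003024032.1 for COX3 and YP_003024038.1 for CYTB. They are 4 of the 13 protein genes of the mitochondrial genome and 4 of the 159067 RefSeq entries of the table. The cells were U-87, an established line from a human glioblastoma, and reads from the 3′ ends of their transcripts were counted per entry. All libraries were made after 24 h. The 3 control libraries were labelled as having no treatment, with no vehicle named. Evernic acid (EA), a lichen metabolite, was given alone at 30 µM (EA30) or 45 µM (EA45), and temozolomide (TMZ), the alkylating drug used against glioblastoma, was given alone at 600 µM (TMZ600). The combinations held 35 µM EA with 320 µM TMZ (EA35TMZ320), 20 µM EA with 380 µM TMZ (EA20TMZ380) and 20 µM EA with 580 µM TMZ (EA20TMZ580). Each of the 6 treatments had 1 library, and the labels do not say whether the controls came from separate cultures, so the p-values below rest on the spread between these libraries, which may be technical.

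Cytochrome c oxidase, or complex IV, passes electrons from cytochrome c to oxygen at the end of the respiratory chain and pumps protons across the inner mitochondrial membrane. COX1 holds the heme and copper centre where oxygen is reduced, COX2 holds the copper centre that receives electrons from cytochrome c, and COX3 is a structural subunit of the core. Cytochrome b is the subunit of complex III that the mitochondrial genome encodes, and it carries the hemes that move electrons between the quinone sites. All 4 are made from long transcripts of the same strand, which are processed, in large part at the tRNAs that lie between genes, and then polyadenylated.

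The ends of the coding sequences are shown because libraries of 3′ ends sample this side of a transcript, and because the 4 genes differ there. The sequences come from GENCODE transcripts on GRCh38, the same build as the one named in the submitters' processing notes (hg38). Each line gives the last 30 bases of the coding sequence on the plus strand, with the stop codon, or the part of it that the genome encodes, in capitals. COX1 lies at chrM:5904-7445 (its end at chrM:7416-7445), COX2 at chrM:7586-8269 (end at chrM:8240-8269), COX3 at chrM:9207-9990 (end at chrM:9961-9990) and CYTB at chrM:14747-15887 (end at chrM:15858-15887).
COX1: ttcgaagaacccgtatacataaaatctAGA
COX2: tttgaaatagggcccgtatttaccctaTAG
COX3: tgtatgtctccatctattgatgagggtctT
CYTB: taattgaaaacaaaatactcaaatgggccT
COX1 and COX2 end in a complete stop codon, followed by 72 and 25 bases before the next tRNA of the same strand. COX3 and CYTB end in a single T that polyadenylation completes, and the next tRNA starts at the following base. COX3 shares 1 base with ATP6, and the other 3 genes overlap no neighbour.

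The 4 coding sequences were close in base composition, with between 46.2 and 46.6% G and C, and differed more in length, with 1542 bases for COX1, 684 for COX2, 784 for COX3 and 1141 for CYTB. The longest run of A was 7 bases in COX1, which lay 747 bases before its end, 5 in COX2 and COX3 and 4 in CYTB. Copies of mitochondrial sequence in the nuclear genome can compete for reads. Of the stretches of 50 bases in COX1, 49.5% also occur unchanged in GENCODE transcripts of nuclear genes, nearly all in the pseudogene MTCO1P12. The share was 184 of 635 stretches for COX2, 30.6% for COX3 and 1.19% for CYTB, and in the last 300 bases it was 50.6% for COX1, 17.5% for COX2, 5.58% for COX3 and 0% for CYTB. The 6 nuclear genes that share such stretches had 0 entries in the count table. How reads that match both places were counted is not given in the sources used here, which leaves the level of COX1 uncertain. COX1 had the largest share of such stretches of the 4 genes. The part of these copies in the levels and differences below was not tested.

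Control replicates 1, 2 and 3 held 269057, 259753 and 285248 counts. Depth in the treated libraries ran from 213566 (EA35TMZ320) to 490235 counts (EA30). The 4 genes together held 717842 of these counts. In the controls they made up 23.4 ± 0.592% of all counts (SD, n = 3), and 24.4 to 27.3% in the treated libraries. As a share of the counts of the 13 mitochondrial genes, they made up 47.9 ± 0.989% in the controls (SD, n = 3) and between 44.3 and 47.9% in the treated libraries. Of all counts, the sum lay above each control in all 6 treated libraries. The 13 mitochondrial genes together held 48.6, 48.4 and 49.1% of all counts in the controls and from 51.7% (TMZ600) to 58.7% (EA20TMZ580) in the treated libraries, and the part of this shift in the shares of all counts below was not tested. A larger share of mitochondrial RNA and a smaller amount of nuclear RNA cannot be told apart in these bulk libraries, which is why shares of mitochondrial counts are given beside shares of all counts.

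Divided by coding length, COX3 had the highest value of the 4 genes in the controls, with 167653 ± 5895 CPM per kilobase (SD, n = 3), where CPM is the count scaled to a common library total with no other factor. COX2 followed with 71670 ± 6086, CYTB with 35133 ± 722 and COX1 with 8468 ± 871 (SD, n = 3). The gaps between these values were larger than the spread between controls, and this order by length held in each of the 9 libraries. By counts alone, CYTB stood above COX2 in EA30, EA45 and EA20TMZ580 (35149 against 30954, 22048 against 19445 and 18902 against 18435 counts) and below it in the other 6 libraries. Libraries of 3′ ends give about 1 read per transcript whatever its length, so the division by length can distort the distances between genes. By counts as well as per kilobase, COX3 was the highest and COX1 the lowest of the 4 in each library. By chi-square per degree of freedom, the controls differed by more than counting error for each gene, with 38.8 for COX1, 99.7 for COX2, 51.1 for COX3 and 4.88 for CYTB. The intervals given below for single libraries are Wilson intervals at 95%, which cover counting error alone and not the spread between libraries.

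**Figure D1:**
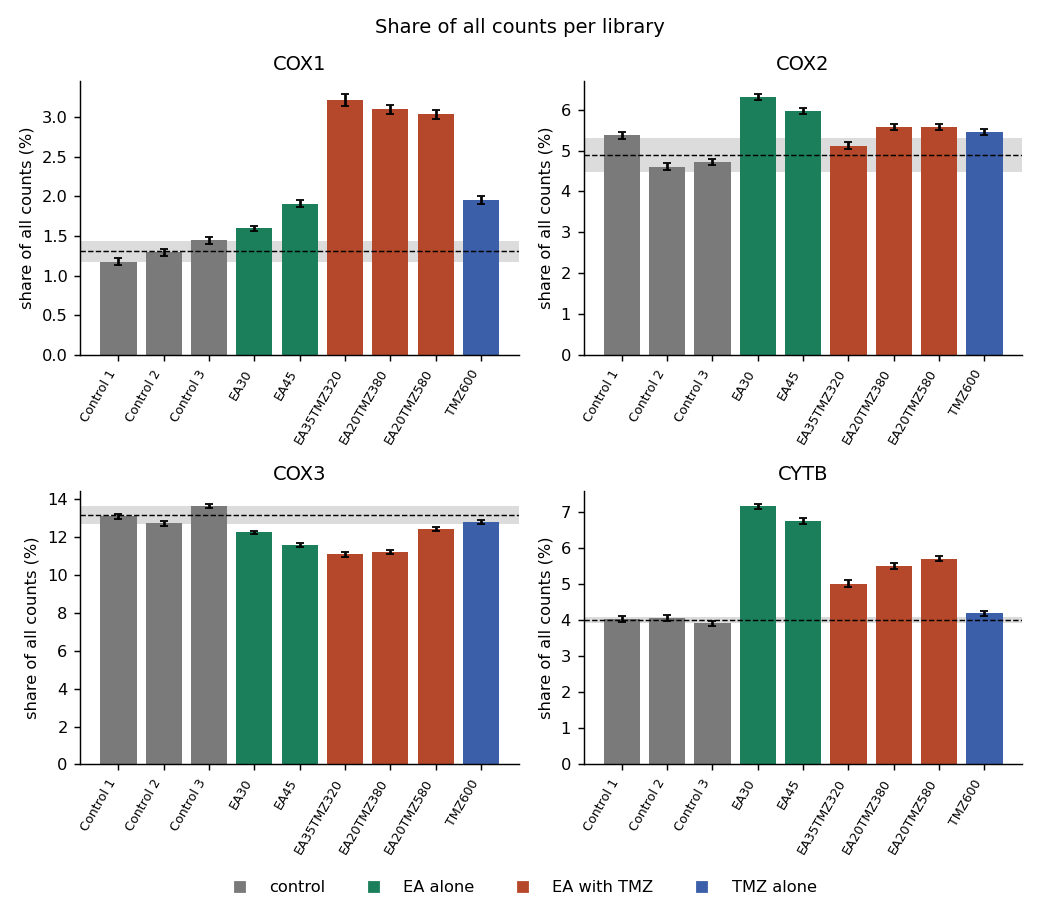
Share of all counts (%, vertical axes) held by COX1, COX2, COX3 and CYTB in each of the 9 libraries (horizontal axes), as bars with 95% Wilson intervals beside the mean and SD of the 3 controls (dashed line and grey band). COX1 stands highest in the 3 combinations (3.03 to 3.22%) and CYTB in EA30 and EA45 (7.17 and 6.77%).

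COX1, the catalytic subunit, was highest in the combinations. In control replicates 1, 2 and 3 it had 3169, 3361 and 4124 counts, which is 1.18, 1.29 and 1.45% of all counts. EA30 had 1.60% (95% interval 1.56 to 1.63%), EA45 1.91% and TMZ600 1.95%. EA35TMZ320 had 3.22% (95% interval 3.14 to 3.29%), EA20TMZ380 3.10% and EA20TMZ580 3.03%. Each treated library lay above each control, and the 3 combinations lay above the 3 single-agent treatments. In the order of the conditions, the neighbouring combinations differed by less than the SD of the controls (0.134 percentage points), as did TMZ600 and EA45, while the step from EA20TMZ580 down to TMZ600 was 1.08 percentage points. The mean share was 2.47% in the treated libraries and 1.31 ± 0.134% in the controls (SD, n = 3), a ratio of 1.89 (exact permutation test, two-sided, p = 0.0238, higher in 6 of 6 libraries). This is the smallest p that 84 arrangements of 6 and 3 libraries allow, and it is not adjusted for the 8 such tests made on 4 genes and 2 denominators. Without any 1 control the exact permutation p was 0.0714, the smallest then possible.

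Within the mitochondrial counts COX1 moved in the same way. Its share was 2.42, 2.67 and 2.94% in the controls, 2.75% in EA30, 3.49% in EA45 and 3.78% in TMZ600. The combinations had 5.86% (EA35TMZ320), 5.40% (EA20TMZ380) and 5.17% (EA20TMZ580). EA30 lay within the range of the controls and the other 5 treated libraries above it (exact permutation test, two-sided, p = 0.0476). This call was lost without EA45, EA35TMZ320, EA20TMZ380, EA20TMZ580 or TMZ600 (exact permutation p = 0.0714 each, where 0.0357 is the smallest possible). It was also lost without control replicate 1 or 2 (exact permutation p = 0.143 each) or 3 (exact permutation p = 0.0714). With 1 control left out, no p under 0.0714 is possible.

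COX2, the subunit that takes electrons from cytochrome c, had a spread between the controls of 8.49% of their mean, against 10.3% for COX1. It had 14469, 11957 and 13480 counts in control replicates 1, 2 and 3, which is 5.38, 4.60 and 4.73% of all counts. EA30 had 6.31% (95% interval 6.25 to 6.38%), EA45 5.97%, EA35TMZ320 5.12%, EA20TMZ380 5.57%, EA20TMZ580 5.57% and TMZ600 5.46%. All neighbours in the order of the conditions differed by less than the SD of the controls, 0.416 percentage points. Of the treated libraries 5 of 6 lay above each control, and EA35TMZ320 lay within their range (mean 5.67% against 4.90 ± 0.416%, SD, n = 3, exact permutation test, two-sided, p = 0.0476). This call held without EA35TMZ320 and was lost without EA30, EA45, EA20TMZ380, EA20TMZ580 or TMZ600 (exact permutation p = 0.0714 each). It was also lost without control replicate 1 (exact permutation p = 0.0714) and replicates 2 or 3 (exact permutation p = 0.143 each). With 1 control left out, no p under 0.0714 is possible, so this loss was fixed in advance.

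As a share of mitochondrial counts COX2 was about level. The controls had 11.1, 9.50 and 9.62%, EA30 and EA45 10.9% each, TMZ600 10.6%, and the combinations between 9.33 and 9.71%. No difference was detected (10.1% in the treated libraries against 10.1 ± 0.863% in the controls, SD, n = 3, exact permutation test, two-sided, p = 0.952), and the mean difference of 0.0796 percentage points changed sign without control replicate 2 (-0.199), control replicate 3 (-0.139), EA30 (-0.0637), EA45 (-0.0710) or TMZ600 (-0.00581).

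COX3, the most abundant of the 4, held 35221, 33017 and 38881 counts in control replicates 1, 2 and 3, or 13.1, 12.7 and 13.6% of all counts. The treated libraries held 12.2% (EA30, 95% interval 12.1 to 12.3%), 11.6% (EA45), 11.1% (EA35TMZ320), 11.2% (EA20TMZ380), 12.4% (EA20TMZ580) and 12.8% (TMZ600). TMZ600 lay within the range of the controls, and the other 5 lay below it. The mean difference was -1.26 percentage points (11.9 against 13.1 ± 0.462%, SD, n = 3, exact permutation test, two-sided, p = 0.0476). The call held without TMZ600 and was lost without any one of the other 5 treated libraries (exact permutation p = 0.0714 each). It was also lost without control replicate 1 or 3 (exact permutation p = 0.143 each) or 2 (exact permutation p = 0.0714). With 1 control left out, no p under 0.0714 is possible, so this loss was fixed in advance. The direction depended on the denominator. Per 100 nuclear counts, COX3 had 25.6 ± 1.07 counts in the controls (SD, n = 3) and 27.1 in the treated libraries, so the difference turned to 1.41 counts (exact permutation test, two-sided, p = 0.405).

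Within the mitochondrial counts the fall of COX3 was larger. Its share was 26.9, 26.2 and 27.8% in the controls. With EA alone it was 21.0% (EA30) and 21.2% (EA45), in the combinations 20.2% (EA35TMZ320), 19.5% (EA20TMZ380) and 21.2% (EA20TMZ580), and with TMZ alone 24.7%. All 6 treated libraries lay below each control (difference -5.67 percentage points, exact permutation test, two-sided, p = 0.0238). Without any 1 control the exact permutation p was 0.0714, the smallest then possible. TMZ600 stood between the controls and the others, with a gap of 2.24 percentage points to the mean of the controls and 3.56 to EA20TMZ580, both larger than the SD of the controls, 0.760. With the overlapping pairs ATP8 with ATP6 and ND4L with ND4 left out of the mitochondrial total, COX3 kept its direction and p-value. On that total the COX2 difference was 0.534 percentage points (exact permutation p = 0.381) and the CYTB difference 3.07 (exact permutation p = 0.0714), in place of 0.0796 and 1.99, and COX1 differed by 2.51 in place of 1.73.

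CYTB, the only member outside complex IV, was highest with EA alone. It held 10875, 10570 and 11167 counts in control replicates 1, 2 and 3, or 4.04, 4.07 and 3.91% of all counts, the smallest spread of the 4 genes. EA30 had 7.17% (95% interval 7.10 to 7.24%) and EA45 6.77%. The combinations followed with 5.71% (EA20TMZ580), 5.51% (EA20TMZ380) and 5.01% (EA35TMZ320), and TMZ600 had 4.20% (95% interval 4.13 to 4.27%). Each treated library lay above each control, and all steps in the order of the conditions were larger than the SD of the controls, 0.0824 percentage points. The mean was 5.73% against 4.01 ± 0.0824% (SD, n = 3, ratio 1.43, exact permutation test, two-sided, p = 0.0238). Without any 1 control the exact permutation p was 0.0714, the smallest then possible. Within the mitochondrial counts CYTB had 8.31, 8.40 and 7.97% in the controls, 12.3% in EA30 and 12.4% in EA45. The combinations had 9.13% (EA35TMZ320), 9.61% (EA20TMZ380) and 9.73% (EA20TMZ580), and TMZ600 8.13%. TMZ600 lay within the range of the controls, and the difference over the 6 treatments missed the threshold (exact permutation test, two-sided, p = 0.0714). Without TMZ600 it was 2.40 percentage points (exact permutation p = 0.0357).

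Against these values stands the background of the whole table. By share of all counts, 2 of the 4 genes (COX1 and CYTB) had all 6 treated libraries above the controls, as did 5.02% of the 618 transcripts tested, and 0 of 4 had all below, as did 14.6% of the transcripts. Among the other mitochondrial genes, ND1, ND2, ND4 and ND4L also had all 6 above the controls, so this was not particular to COX1 and CYTB. ATP6, ATP8, ND3, ND5 and ND6 overlapped the controls. By share of mitochondrial counts, 1 of 4 (COX3) lay below the controls in all 6 libraries, as did 15.4% of the 13 mitochondrial genes (ND3 was the other), and 0 of 4 lay above, against 15.4% (ND1 and ND4L).

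**Figure D2:**
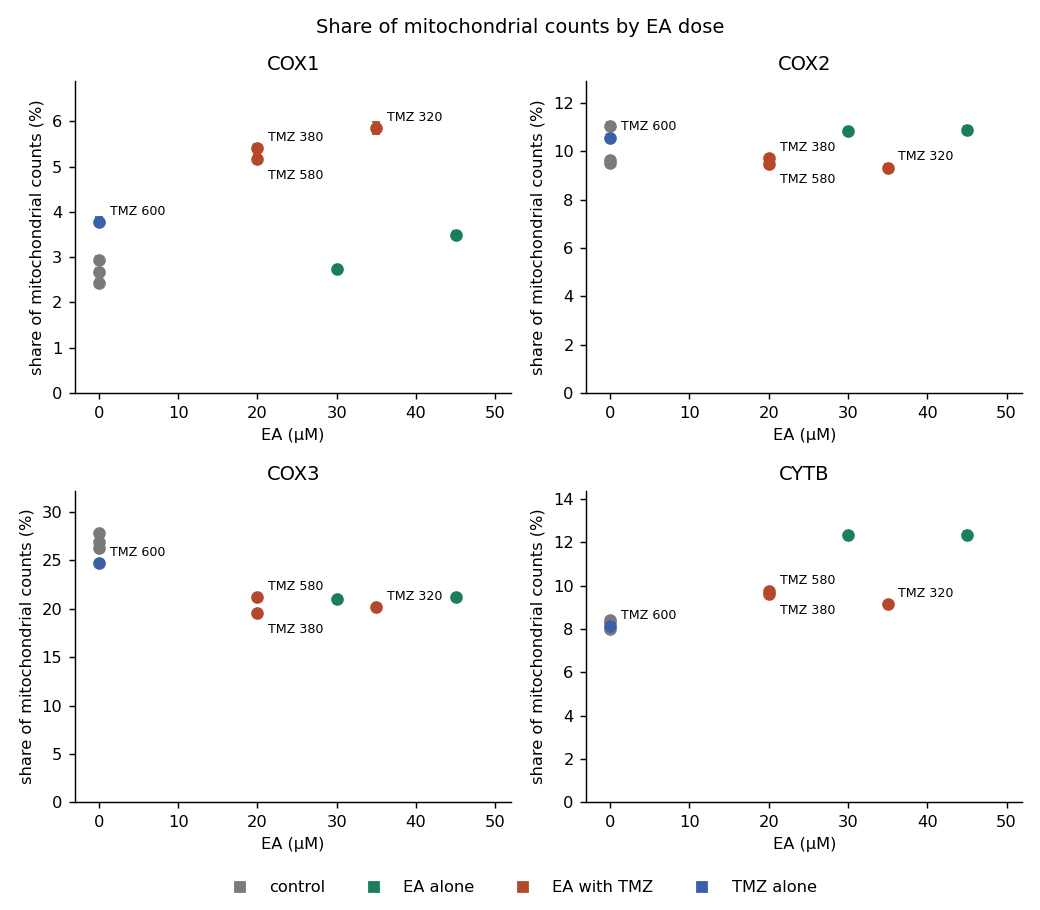
Share of mitochondrial counts (%, vertical axes) held by each gene against the EA concentration (µM, horizontal axes), as points for single libraries with 95% Wilson intervals and the TMZ concentration (µM) written beside each library that received it. COX1 stands at 5.86% in EA35TMZ320 and 2.75% in EA30, and CYTB at 9.13 and 12.3%.

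The fold changes were estimated with edgeR on counts scaled by TMM, which sets the libraries on a common scale, for the 618 transcripts whose mean count was 10 or more, and all p-values were adjusted over these 618 by the Benjamini-Hochberg method. All 4 genes passed this minimum through their counts in every library. The single treatments share the same 3 controls. In EA30, 3 of 4 members passed an adjusted p of 0.05, all higher, where 17.3% of all transcripts passed. In EA45 the same count, 3 of 4, stood against 38.8%, in EA35TMZ320 against 43.9%, in EA20TMZ380 against 24.9% and in EA20TMZ580 against 23.1%. In TMZ600, 1 of 4 passed, against 9.87%. The 3 genes were COX1, COX2 and CYTB in each of these cases, and the gene in TMZ600 was COX1.

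COX1 rose in each single treatment. Its log2 fold change was 0.55 in EA30 (standard error, SE, 0.11, edgeR adjusted p = 0.000272), 0.78 in EA45 (SE 0.11, adjusted p = 2.04e-07) and 0.52 in TMZ600 (SE 0.11, adjusted p = 0.000903). In the combinations it was 1.47 in EA35TMZ320 (SE 0.11, adjusted p = 5.44e-15), 1.53 in EA20TMZ380 (SE 0.11, adjusted p = 4.21e-15) and 1.41 in EA20TMZ580 (SE 0.11, adjusted p = 5.7e-14), so the scaled count was 2.65 to 2.88 times that of the controls. These calls held in each of the 10 alternatives run for each treatment.

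CYTB rose most with EA alone. The log2 fold change was 1.10 in EA30 (SE 0.09, adjusted p = 1.69e-12) and 0.99 in EA45 (SE 0.09, adjusted p = 6.1e-12). It was 0.49 in EA35TMZ320 (adjusted p = 2.75e-05), 0.74 in EA20TMZ380 (adjusted p = 1.94e-08) and 0.70 in EA20TMZ580 (adjusted p = 6.69e-08). In TMZ600 no change was detected, with a log2 fold change of 0.0064 (95% interval -0.19 to 0.20, adjusted p = 0.977).

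COX2 passed in EA30, EA45 and the combinations. Its log2 fold change was 0.63 in EA30 (SE 0.10, adjusted p = 2.12e-06), 0.52 in EA45 (adjusted p = 2.3e-05), 0.46 in EA20TMZ380 (adjusted p = 0.000248) and 0.38 in EA20TMZ580 (adjusted p = 0.00326). EA20TMZ580 lost the call without control replicate 2 (adjusted p = 0.142). In EA35TMZ320 the change of 0.23 lay at the threshold (adjusted p = 0.0497) and held in 3 of 10 alternatives (adjusted p from 0.000200 to 1.00), failing without control replicate 2 (0.356) and replicate 3 (0.175). In TMZ600 it was 0.09 (95% interval -0.10 to 0.29, adjusted p = 0.639).

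For COX3 no change was detected in any single treatment, nor in any of the 10 alternatives run for each. The log2 fold changes lay between -0.10 in TMZ600 (95% interval -0.27 to 0.07, adjusted p = 0.538) and 0.16 in EA30 (95% interval -0.0078 to 0.32, adjusted p = 0.208). On this scale COX3 was thus about level while its shares were lower. The median log2 fold change of the 4 members lay between 0.05 in TMZ600 and 0.65 in EA45, that of the other 9 mitochondrial genes between 0.12 in TMZ600 and 0.79 in EA20TMZ580, and that of all 618 transcripts between -0.13 in EA20TMZ380 and -0.0017 in TMZ600. Of the other 9 mitochondrial genes, 6 rose and 1 fell in EA30, EA20TMZ380 and EA20TMZ580 alike, 5 rose and 2 fell in EA45, 5 rose and 3 fell in EA35TMZ320, and 1 rose in TMZ600. Scaling on nuclear transcripts alone moved the median of all transcripts from -0.13 to -0.01 in EA20TMZ380, the largest such shift, with 71 of 154 calls higher before it and 89 of 155 after it, and the calls of the 4 members stayed as they were in each single treatment.

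**Figure D3:**
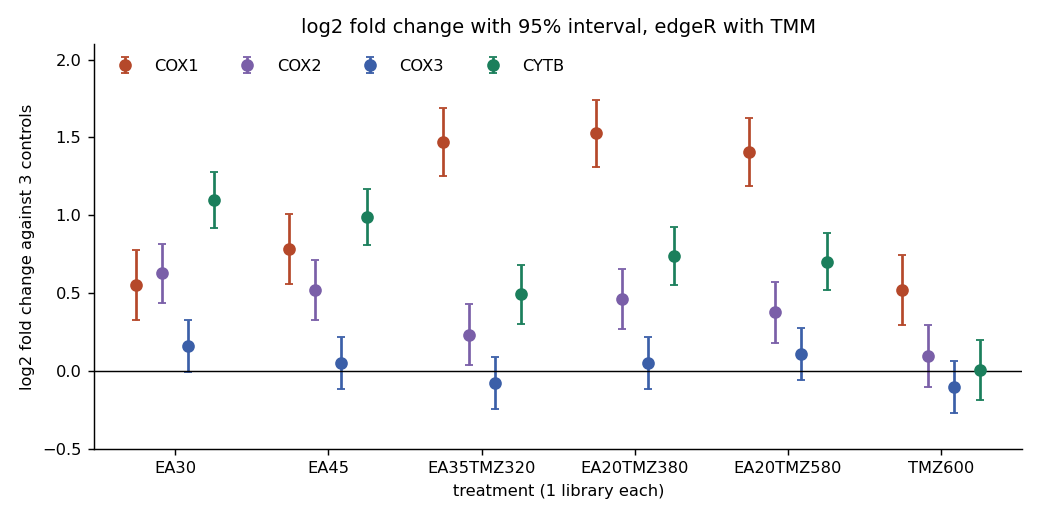
log2 fold change against the 3 controls (vertical axis) of the 4 genes in each treatment (horizontal axis), from edgeR with TMM, as estimates (points) with 95% intervals (bars). COX1 lies highest in the 3 combinations (1.41 to 1.53), CYTB highest in EA30 and EA45 (1.10 and 0.99), and the intervals of COX3 include 0 throughout.

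The difference between the combinations and EA alone was tested directly, as a contrast chosen after the shares had been seen. Of the 4 members 3 passed, 1 higher and 2 lower, where 16.5% of all transcripts passed. Of the other 9 mitochondrial genes 5 passed, 3 higher and 2 lower. COX1 was higher in the 3 combinations than in EA30 and EA45 by a log2 difference of 0.80 (SE 0.09, adjusted p = 2.06e-08). CYTB was lower, by -0.40 (SE 0.07, adjusted p = 6.82e-05). Both held in all 14 alternatives, with adjusted p-values from 3.55e-30 to 0.000856 for COX1 and from 2.98e-11 to 0.0109 for CYTB. COX2 was lower at the threshold, by -0.22 (adjusted p = 0.0492), and held in 5 of 14 alternatives. Its adjusted p ranged from 0.000922 to 0.310 over them, and it failed without control replicate 2 (0.268), control replicate 3 (0.0800), EA30 (0.310), EA35TMZ320 (0.238) or EA20TMZ580 (0.0946). The COX2 call was also lost with scaling by DESeq2 size factors or on nuclear transcripts, by the DESeq2 test and with no filter. For COX3 no difference was detected (log2 difference -0.08, 95% interval -0.21 to 0.05, adjusted p = 0.455). With 1 library left out, the COX3 difference ran from -0.13 to -0.026. The combinations also held less EA on average than the libraries of EA alone, and the part of this in the contrast was not tested. EA35TMZ320, which held more EA than EA30, had a log2 fold change of 1.47 against 0.55 for COX1 and of 0.49 against 1.10 for CYTB, and these pairs were not tested.

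With pairs of doses, no member passed. Between EA45 and EA30, 0 of 4 members had an adjusted p under 0.05 in edgeR, where 9.71% of all transcripts passed, and 0 of 4 passed by DESeq2 or by limma-voom, which called 18 and 71 of all transcripts. At an unadjusted p under 0.05 the edgeR counts were 0 of 4 members and 154 of 618 transcripts. COX1 was 0.23 higher in EA45 on the log2 scale (95% interval -0.05 to 0.52), and CYTB differed by -0.11 (95% interval -0.34 to 0.12). Between EA20TMZ580 and EA20TMZ380, 0 of 4 passed in edgeR, against 8.09% of all transcripts, and 0 of 4 in DESeq2 or limma-voom, which called 3 and 48 of all transcripts. At an unadjusted p under 0.05 the edgeR counts were 0 of 4 members and 130 of 618 transcripts. Here COX1 differed by -0.12 (95% interval -0.40 to 0.16) and CYTB by -0.04 (95% interval -0.27 to 0.20). Each of these doses had 1 library, and a p that misses the threshold does not show that the doses acted alike.

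A dose model used all 9 libraries, with 1 term for each additional 10 µM of EA and 1 for each additional 100 µM of TMZ. For EA, 3 of 4 members passed, all rising, where 27.5% of all transcripts passed. Of the other 9 mitochondrial genes 5 passed, 4 rising and 1 falling. COX1 rose by a log2 of 0.24 per 10 µM (SE 0.05, adjusted p = 0.00399) and CYTB by the same 0.24 (SE 0.04, adjusted p = 0.00172). COX2 rose by 0.12 (SE 0.04, adjusted p = 0.0293), a call that held in 9 of 15 alternatives (adjusted p from 0.00731 to 0.118). It was lost with no filter on low counts (adjusted p = 0.0632), without any one control (adjusted p = 0.0569, 0.114 and 0.104 without replicates 1, 2 and 3), without EA45 (0.118) and without TMZ600 (0.0556). For TMZ, 1 of 4 passed, against 3.72%. This was COX1, which rose by 0.17 per 100 µM (SE 0.03, adjusted p = 0.0151) but missed the threshold without control replicate 2 (0.0525), EA45 (0.0585) or EA20TMZ580 (0.0648). CYTB had a TMZ term of 0.0055 (95% interval -0.06 to 0.07, adjusted p = 0.928). Whether the TMZ terms of COX1 and CYTB differ was not tested.

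A further term for the product of both doses was added after the shares had been seen. In edgeR 0 of 4 members passed, against 0% of all transcripts, with 1 of 4 members and 26 of 618 transcripts at an unadjusted p under 0.05. DESeq2 called 0 members and 1 transcript, and limma-voom called 0 of either. COX1 had the largest product term of the 4, with a log2 of 0.06 per step (unadjusted p = 0.0167, adjusted p = 0.985). With 1 library left out, the COX1 term ran from 0.024 to 0.071. Without TMZ600, 44 transcripts passed, and 0 of 4 members.

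With the 6 treatments taken as 1 group, 1 of 4 members passed, where 6.8% of all transcripts passed. At an unadjusted p under 0.05 the counts were 3 of 4 members and 161 of 618 transcripts. COX1 had a log2 fold change of 1.11 (SE 0.25, adjusted p = 0.0229). It no longer passed without control replicate 1 (adjusted p = 0.123), replicate 2 (0.102) or replicate 3 (0.0863). CYTB, with 0.71 (SE 0.21, adjusted p = 0.0544), and COX2, with 0.40 (SE 0.14, adjusted p = 0.103), missed the threshold, and both passed without TMZ600 (adjusted p = 0.00355 and 0.0343). CYTB also passed without EA35TMZ320 (adjusted p = 0.0499). COX3 had 0.03 (95% interval -0.21 to 0.28, adjusted p = 0.870), and from 0.0087 to 0.061 with 1 library left out.

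Ratios of counts within a library need no scaling between libraries and show how the 4 genes moved against each other. COX1 over COX3 was 0.0900, 0.102 and 0.106 in the controls, 0.130 in EA30 and 0.165 in EA45, then 0.290 (EA35TMZ320), 0.277 (EA20TMZ380) and 0.244 (EA20TMZ580) in the combinations and 0.153 with TMZ alone. CYTB over COX3 was 0.309, 0.320 and 0.287 in the controls, 0.586 in EA30 and 0.584 in EA45, then 0.452 (EA35TMZ320), 0.492 (EA20TMZ380) and 0.460 (EA20TMZ580) in the combinations and 0.329 with TMZ alone. In both ratios each treated library lay above each control. CYTB over COX1 went in both directions, from 2.71 to 3.43 in the controls to 4.49 in EA30 and 3.54 in EA45 on one side, and to 1.56 (EA35TMZ320), 1.78 (EA20TMZ380), 1.88 (EA20TMZ580) and 2.15 with TMZ alone on the other. COX3 over COX2 lay below each control in all 6 treated libraries, with 1.94 to 2.34 against 2.43 to 2.88. COX1 over COX2 was 0.219 to 0.306 in the controls and 0.253 in EA30, within that range, and 0.320 to 0.628 in the other 5 treated libraries. The ratios that lay on the same side of each control in all 6 treated libraries all held COX3, so they are not separate results. CYTB over COX2, COX1 over ND1, COX1 over ND4L, COX3 over ATP6, CYTB over ND4 and COX2 over ND2 did not do so.

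**Figure D4:**
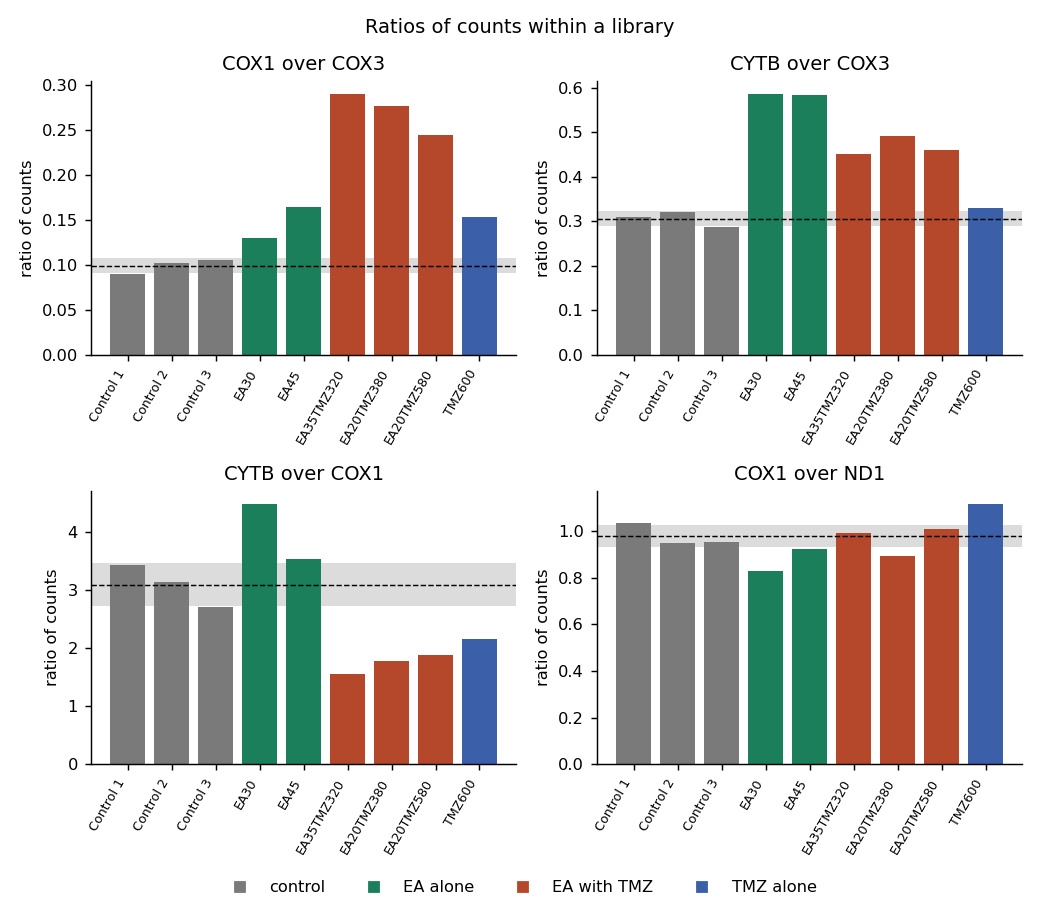
Ratios of counts within each of the 9 libraries (horizontal axes), with the mean and SD of the 3 controls as a dashed line and grey band. COX1 over COX3 and CYTB over COX3 lie above the controls in all 6 treated libraries, CYTB over COX1 lies above them with EA alone and below them with TMZ, and COX1 over ND1 lies between 0.828 and 1.12 in all 9 libraries.

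Among the other genes of the mitochondrial genome, ND1, a subunit of complex I, was the one most like COX1. Pearson's r of log2 CPM on TMM-scaled library totals over the 9 libraries, which share the 3 controls and differ in depth, was 0.98, and ND1 ranked first of 617 transcripts. The ratio of COX1 to ND1 was 1.03, 0.949 and 0.952 in the controls and between 0.828 and 1.12 in the treated libraries. ND4L followed at rank 2 (r = 0.97) and ND5 at rank 3 (r = 0.95), while COX2 stood at rank 107 (r = 0.57) and COX3 at rank 253 (r = 0.15). For CYTB the most alike mitochondrial genes were COX2 (r = 0.96, rank 2) and ND4 (r = 0.95, rank 3), and for COX3 it was ATP6, its overlapping neighbour (r = 0.82, rank 2).

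Outside the mitochondrial genome, the 3 named transcripts most like each gene were taken by the same r. For COX1 they were RAPGEFL1 (r = 0.94), CREB3, a transcription factor of the endoplasmic reticulum (r = 0.89), and LOC105372858 (r = 0.87). For CYTB they were LAMA1, the laminin alpha 1 chain (r = 0.97), DLGAP1-AS1 (r = 0.91) and TALDO1, the transaldolase of the pentose phosphate pathway (r = 0.90). LAMA1 had 54.6, 60.7 and 70.7 TMM-scaled CPM in the controls, 185 in EA30, 166 in EA45, 116 to 159 in the combinations and 55.1 in TMZ600. LAMA1 and DLGAP1-AS1 were also among those nearest to COX2 (r = 0.90 and 0.88), after LOC107984865 (r = 0.91). The nearest to COX3 were SEC22B (r = 0.94), NFKBIB (r = 0.79) and PSPN (r = 0.76), all at under 113 TMM-scaled CPM. SEC22B ran from 14.5 in EA35TMZ320 and TMZ600 to 98.5 in EA20TMZ580. In EA35TMZ320 and TMZ600, 3 counts are 14.0 and 9.86 CPM before TMM scaling, so this r rests in part on very few reads. These values describe 9 libraries and carry no test.

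The nuclear partners of the 4 proteins were hardly measured in this table. Of 18 nuclear subunits of complex IV, 17 were listed, 15 of them at 0 in all libraries, and 0 had enough counts for a test. COX6B1 was the most abundant, with 11 counts in all. Of 10 nuclear genes of complex III and cytochrome c, 8 were listed at 0 and 1, UQCR11, could be tested. UQCR11, a small subunit of complex III, had 5333, 5124 and 5449 TMM-scaled CPM in the controls. On this scale its highest level was 7329 in EA20TMZ380 and its lowest 4643 in EA45, with 5242 to 5985 in the other treatments. It passed in EA20TMZ380 alone among the single treatments, with a log2 fold change of 0.47 (SE 0.13, adjusted p = 0.00614). It was also higher in the combinations than with EA alone (log2 difference 0.35, SE 0.11, adjusted p = 0.0199), where CYTB was lower. A difference between UQCR11 and CYTB was not tested.

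Of 25 assembly factors of complex IV, 19 were listed at 0 and 1, COA8, could be tested. COA8 had 25, 27 and 27 counts in the controls and 76 in TMZ600, where it passed (log2 fold change 1.30, SE 0.43, adjusted p = 0.0467), and 13 to 49 counts in the other treatments, where it did not pass. Of 6 assembly factors of complex III, 5 were listed at 0 and 0 were tested. Of 31 factors of mitochondrial transcription, RNA stability and translation, 30 were listed, 24 of them at 0, and 0 were tested, with GFM2 the most abundant at 15 counts. A listing at 0 was not read as absence or as a low level, since COX4I1, COX7C, UQCRC1, CYCS and VIM were among the genes at 0 in all 9 libraries.

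The label of the cells was checked in the same way. Of 10 glioma and astrocyte markers, 8 were listed at 0, among them GFAP, SOX2 and VIM, so the table could not check the label by them. The summed counts of the list were 152, 169 and 176 in the controls, 56 in EA30 and 15 in EA45, then 22 (EA35TMZ320), 44 (EA20TMZ380) and 20 (EA20TMZ580) in the combinations and 54 with TMZ alone. Nearly all came from NES, the intermediate filament nestin, which fell in all 6 treatments as 1 group (log2 fold change -2.39, SE 0.31, adjusted p = 0.000988), and the part of this in the results above was not tested. Of 6 fibroblast markers 5 were at 0, and PDGFRB had 9 counts in all. Of 7 breast epithelial markers 6 were at 0, and ESR1 had 1 count.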

How the data were processed

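The authors made 3′ end libraries (QuantSeq) from total RNA and deposited 1 table of counts per RefSeq entry, whole numbers without normalization. The submitters' processing notes name HISAT2, HTSeq and hg38, with no versions. Strand settings and the treatment of reads with several matches are not given in the sources used here. Gene symbols came from RefSeq on GRCh38.p14. Of the entries, 45017, with 4.67% of counts, had no match. The 4 members and all gene lists were chosen with earlier results of these data known. Nuclear counts ranged from 96265 to 205133 per library.

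Fold changes came from edgeR 4.0.16 (R 4.3.3) and its quasi-likelihood test, after TMM, a mean of at least 10 counts and a threshold of 0.05 after Benjamini-Hochberg adjustment over 618 transcripts. Fits with 1 coefficient per condition took their spread from the controls, with 2 residual degrees of freedom per gene and 38.8 added by edgeR. Standard errors were derived from the F statistic. Named genes were the members, the other mitochondrial genes, every tested gene of the lists and, by Pearson's r, 3 transcripts with a symbol per member. Alternatives used DESeq2 1.42.0, limma 3.58.1, scaling on nuclear transcripts, other count minimums, other denominators and each library left out. Exact permutation tests were run in Python 3.11.15 (scipy 1.17.1, numpy 2.4.6, pandas 2.3.3), which also drew the plots (matplotlib 3.10.9). Pairs of controls had a chi-square per degree of freedom of 3.59 to 5.85 over all genes and were kept as 3 libraries. Columns of the table without a sample numbered 0. Their numbers pair no libraries.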

Additional observations from a re-analysis of the deposited data

Results flagged for a closer look

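COX3 held 24.7% of the mitochondrial counts in TMZ600, the highest of the 6 treated libraries. It stood apart from the other 5, which lay between 19.5 and 21.2%, by more than such a gap is expected to reach within 1 group of 6 (Dixon's ratio 0.685, above the 95% critical value for 6 samples). TMZ600 is the treatment without EA, so the 6 libraries are not replicates of each other. Chance alone marks about 1 in 20 groups in this way, and 8 groups were examined, each of 6 shares of 1 gene.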

How the results depend on the processing

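Of 608 log2 values recomputed under alternatives, 556 kept their direction and side of the threshold, 29 lost and 5 gained a call, and 18 changed sign. Of 88 shares, 48 kept both, 33 lost and 1 gained a call, and 6 changed sign. With 1 control left out the share tests could not reach 0.05, so the losses in those settings were fixed by the number of libraries. The cause of the other changes was not tested. The combinations-against-EA contrast and the product term were chosen after seeing the data.
Treated minus control, in percentage points, ran with 1 library left out from 1.01 to 1.34 (COX1 of all counts), 1.44 to 2.06 (COX1 of mitochondrial counts), 0.616 to 1.00 and -0.199 to 0.577 (COX2), -1.47 to -1.01 and -6.35 to -5.27 (COX3), and 1.43 to 2.03 and 1.56 to 2.40 (CYTB). Without control replicate 3, EA30, EA45 and TMZ600 the COX2 share of mitochondrial counts gave -0.139, -0.0637, -0.0710 and -0.00581. Per 100 nuclear counts COX3 gave 1.41.
With a mean of at least 50 counts, the log2 value was -0.012 for COX3 in EA45, -0.027 for COX3 in EA20TMZ380, -0.025 for CYTB in TMZ600 and -0.0035 for the TMZ term of CYTB. CYTB in TMZ600 gave -0.0029 fitted with the controls alone, and -0.014 to 0.023 with 1 control left out. COX3 gave -0.021 between EA20TMZ580 and EA20TMZ380 on nuclear scaling, and -0.0068 as product term with no filter. With 1 library left out, the TMZ term ran from -0.017 to 0.0013 (COX3) and -0.0074 to 0.025 (CYTB, -0.0029 without EA45 and -0.0020 without EA20TMZ380). The product term ran from -0.074 to 0.0045 (COX2), -0.038 to 0.013 (COX3, -0.0013 without EA45 and -0.0031 without EA20TMZ580) and -0.12 to 0.018 (CYTB, 0.0035 without EA30). Over the 6 treatments CYTB passed with 0.73 by DESeq2 and 0.73 with no filter, and with 1 library left out the log2 value ran from 1.01 to 1.20 (COX1), 0.34 to 0.47 (COX2) and 0.62 to 0.82 (CYTB).
DESeq2 called 42 transcripts against 107 in EA30, 114 against 240 in EA45, 150 against 271 in EA35TMZ320, 58 against 154 in EA20TMZ380, 58 against 143 in EA20TMZ580, 23 against 61 in TMZ600, 18 against 60 between EA45 and EA30, 3 against 50 between EA20TMZ580 and EA20TMZ380, 40 against 102 between combinations and EA alone, 92 against 42 over the 6 treatments, 43 against 23 for the TMZ term and 1 against 0 for the product term. With no filter 102 were called in EA20TMZ380, 93 in EA20TMZ580 and 16 between EA20TMZ580 and EA20TMZ380, where at least 50 counts gave 13. With 1 library left out the calls ran from 58 to 102 (EA45 against EA30, the highest without control replicate 1), 32 to 78 (EA20TMZ580 against EA20TMZ380, without control replicates 2 and 1), 12 to 65 (6 treatments, without control replicate 1 and TMZ600), 61 to 193 (EA term, without EA45 and EA20TMZ580), 7 to 36 (TMZ term, without control replicate 2 and EA35TMZ320) and 0 to 44 (product term, the highest without TMZ600). Over the 6 treatments 2 members passed by DESeq2, 2 with no filter and 0 to 3 with 1 library left out, and for the TMZ term 0 to 1.
With 1 library per treatment, the spread of a treatment is assumed to equal that of the controls.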
